A study of Mus musculus with 768 samples.

Results

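Luminal cells of the mouse mammary gland that carry an inducible, constitutively active Notch1 transgene were split by whether their libraries held reads of the reporter transcript eGFP. The cells came from 1 plate of 384 wells, sorted from the WAP-CRE; R26-N1ICD-EGFP genotype. A cell was taken as luminal when it had at least 50000 reads and 1000 genes, at least 10 CPM of the luminal keratin Krt8, and fewer than 3 of the leukocyte genes Ptprc, Cd53, Arhgdib, Coro1a and Laptm5 at 20 CPM or more. CPM is the reads of a gene per 1000000 reads of the cell, or of the summed cells of a group, with eGFP left out of the total. Of the 617 cells kept on both plates of the series, 210 were luminal cells of this plate. Of those, 76 cells, or 36.2%, held 5 or more eGFP reads (eGFP-read cells) and the cells with none, 58.6% of the 210, are called eGFP-unread cells. The other 11 cells, with 1 to 4 eGFP reads, stood outside the comparison and are given beside it.

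The series holds a second plate, from the control genotype WAP-CRE; R26-tdTomato, of which 300 cells met the same luminal rule. Both genotypes are on the C57BL/6 strain, and both carry WAP-CRE, in which the Wap milk gene promoter drives Cre, so recombination is expected mainly in cells that have used that promoter. Fresh inguinal glands were dissociated after what the labels describe as 3 to 4 months of lactation, wording that may instead refer to the age of the mice. GFP- or tdTomato-positive cells were sorted singly, and libraries were made by Smart-Seq2, which reads whole transcripts. All cells of the plate had thus been sorted as reporter-positive, whether or not their library held an eGFP read. The labels name no animal. Each plate was therefore taken as 1 sample, cells were not used as replicates, and no p-value or standard error was computed. Both sides of the eGFP comparison come from the same plate, whereas plate, genotype and reporter cannot be told apart wherever control values are given.

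Notch1 is a cell-surface receptor that is cut after it binds a ligand on a neighbouring cell. The freed intracellular domain, N1ICD, enters the nucleus, joins the DNA-binding protein Rbpj and a Mastermind coactivator, and switches on target genes such as Hes1, Nrarp and members of the Hey family. In the mammary gland Notch signalling is known for its part in luminal fate, and in the balance between hormone-sensing luminal cells, which carry estrogen and progesterone receptors, and the progenitor and secretory cells of the alveolar lineage. A transgene placed at Rosa26, a locus active in most tissues, is silent until Cre removes a stop cassette.

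The eGFP-read cells were chosen by their eGFP reads, so their eGFP values describe the choice. They held at least 5 and at the median 27 eGFP reads, at 11.3, 66.4 and 1751 CPM (lowest, median, highest), and 2846 reads in all. Close to the threshold, 1 cell had 5 reads, 2 cells had 6 and 3 cells had 9. Just outside it, 4 cells had 3 reads, 3 cells had 2, 4 cells had 1 and none had 4. At the Krt8 threshold of 10 CPM the lowest value inside was 12.8 CPM and the highest outside 9.44 CPM, close to the threshold. The lowest total inside was 51736 reads against 44589 outside. Of the 210 luminal cells, 1 held exactly 2 of the leukocyte genes at 20 CPM or more. The background of the eGFP row was low but not zero. In the control luminal cells, whose reporter is tdTomato, 53 of 300 held an eGFP read (17.7%, 95% Clopper-Pearson interval 13.5 to 22.5), with 62 reads in all and no more than 2 in a cell, at 0.84 CPM. No control cell reached 5 reads, a count of 0 with a Clopper-Pearson upper limit of 1.22%. On the N1ICD-EGFP plate itself, 2 of 52 leukocyte-marker cells held an eGFP read (3.85%, 0.47 to 13.2), although their median depth of 339930 reads was above that of the eGFP-unread luminal cells. Of these, 1 cell held 13 eGFP reads, past the threshold of 5. The leukocyte-marker cells of this plate had also been sorted as reporter-positive, so they may not be free of the reporter. All intervals here cover the counting error of cells or of reads only, and not the spread between cells. The libraries carry no molecular identifiers and PCR copies of 1 molecule count as separate reads. Intervals of summed reads are therefore too narrow for counts of molecules.

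**Figure D1:**
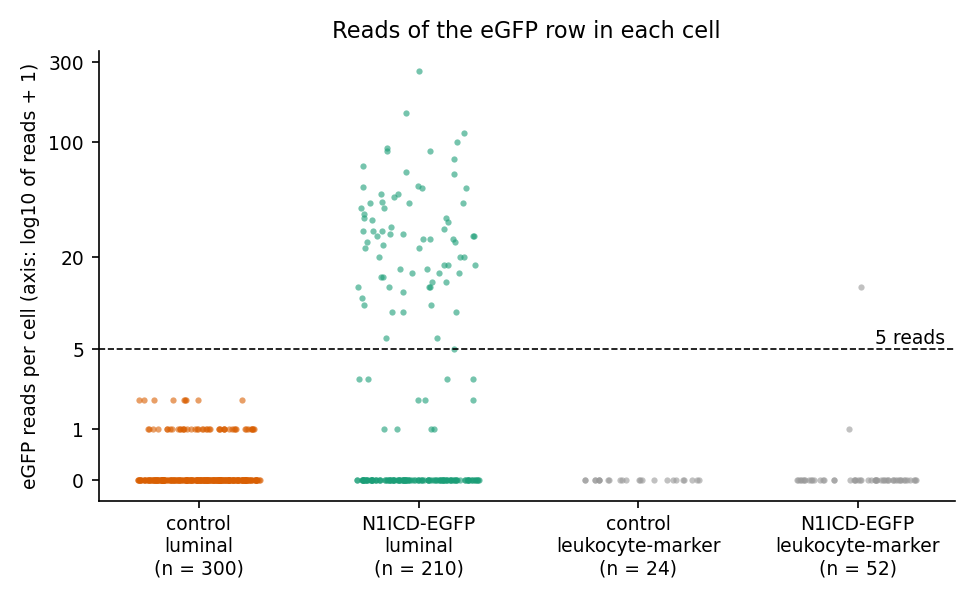
eGFP reads in each cell (vertical axis, log10 of reads plus 1; 1 point per cell, spread sideways for view) for luminal and leukocyte-marker cells of the control and N1ICD-EGFP plates. The dashed line is the threshold of 5 reads; no control luminal cell lies above 2 reads, and 76 of 210 N1ICD-EGFP luminal cells lie at or above the line.

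Depth differed between the groups and moved with the eGFP call. The eGFP-read cells held 78812 to 615615 reads with a median of 417394, and the eGFP-unread cells 51736 to 603528 with a median of 317678. The share of luminal cells with 5 or more eGFP reads was 15.2% (5.11 to 31.9, 5 of 33) at 50000 to 200000 reads, 33.1% (24.98 to 41.97) at 200000 to 450000 and 58% (43.2 to 71.8, 29 of 50) above that. Thinning every cell to 50000 reads, by drawing reads without replacement, did not remove this order: any eGFP read was then left in 18.2%, 32.3% and 56% of the cells of those depths. After thinning, 71 of the 76 eGFP-read cells still held an eGFP read, against 4 of the 11 cells with 1 to 4 reads and 14 of the 300 control cells. The share was similar across the plate, with 32.1% (23.3 to 41.8) in well columns 1 to 12 and 40.4% (30.9 to 50.5) in columns 13 to 24.

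Cells with eGFP reads also yielded more genes from the same number of reads. The number of genes read was 1143 to 7598 with a median of 3116 in eGFP-read cells and 1290 to 5137 with a median of 2337 in eGFP-unread cells. Thinned to 50000 reads, the medians were 2592.5 and 1995, beside 3141 in control luminal cells. The ranges overlapped over most of their length. Single genes showed the same direction: of 5832 genes compared, 91.6% were read in a larger share of the thinned eGFP-read cells, by a median of 9.63 percentage points. Every share of cells with a read given below is to be read against this background. The part of depth and gene number in the results was not tested, but values within matched cells are given where they bear on a result.

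**Figure D2:**
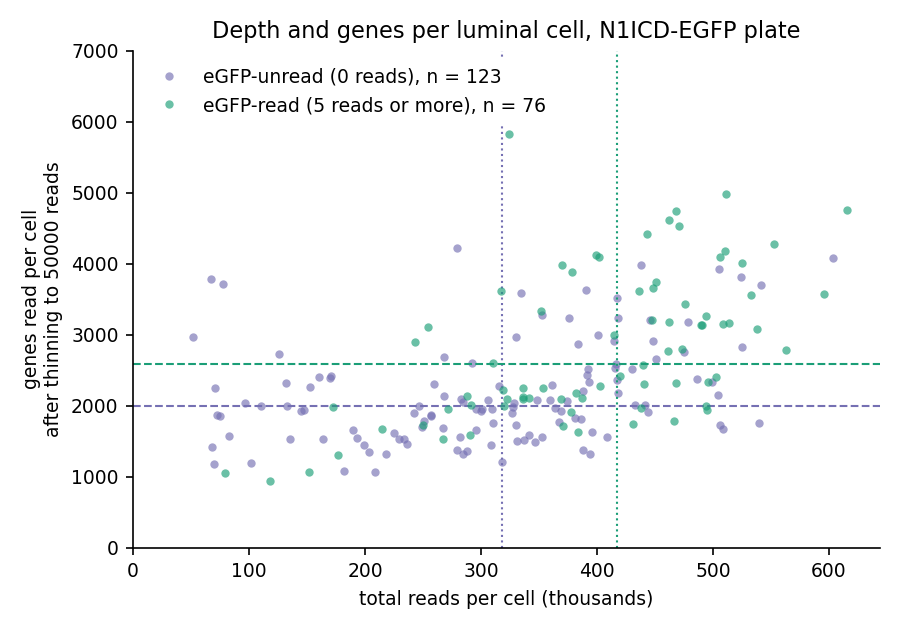
Genes read per cell after thinning to 50000 reads (vertical axis) against total reads per cell (horizontal axis, in units of 1000 reads), for the 76 eGFP-read cells and the eGFP-unread cells. Dashed lines are the median gene numbers (2592.5 and 1995) and dotted lines the median depths (417394 and 317678 reads), all higher in eGFP-read cells, with clouds that overlap.

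Both groups had the luminal identity that the label gives them. Of 4 luminal markers, at least 3 stood at 20 CPM or more in 98.7% of thinned eGFP-read and 99.2% of thinned eGFP-unread cells. Krt8, which the rule used, ranged over 22.6, 773 and 4445 CPM (lowest, median, highest) and 12.8, 655 and 4444 CPM. Krt18, its partner keratin, stood at 3319 and 3566 CPM in the summed cells, a log2 ratio of -0.10. None of the 11 pan-luminal keratin and junction genes that could be compared, of 12, differed by 1.5-fold with the conditions given next (median log2 ratio 0.07). No basal-like cell with 3 basal markers was found among eGFP-read cells and 1 among eGFP-unread cells, and no cell of either group had 3 fibroblast markers.

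A gene was compared when it reached 10 CPM and was read in 20% of cells in the group with the higher CPM. It was called higher or lower when the CPM of the summed cells differed by 1.5-fold or more, with the same direction in the share of thinned cells with a read, in the mean of per-cell CPM and in both sides of the plate (well columns 1 to 12 and 13 to 24). This is a rule of size and not a test. By it 813 of the 5832 genes were higher in eGFP-read cells (13.9%) and 3.46% were lower. By size alone, 17% were 1.5-fold higher and 9.29% were 1.5-fold lower. The median log2 ratio was 0.09, and 95% of genes lay between -1.03 and 1.28. Among the 954 genes at 200 CPM or more, 7.02% were called higher and 1.26% lower. Higher calls made up 80.1% of all calls here and 74.3% after scaling by the median ratio. They made up 55.8% (756 higher, 600 lower) among the 46 and 75 cells with 2000 to 4000 genes. With a filter of 1 CPM and no minimum share of cells they made up 49.6% (1696 higher, 1724 lower). By size alone, that filter gave 2722 genes 1.5-fold higher and 3893 lower, with a median log2 ratio of -0.10. The call also required the same direction in the share of thinned cells with a read. That share was larger in eGFP-read cells for 91.6% of the 5832 genes. From size alone to all conditions, higher genes went from 17% to 13.9% and lower genes from 9.29% to 3.46%. The parts of the gene filter and of the share condition in the excess of higher calls were not tested.

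Notch1 (protein-coding, at 26457902 to 26503822 of chromosome 2 in the RefSeq annotation of GRCm38.p6, the assembly behind mm10) was higher in eGFP-read cells. Its level was 0, 288.1 and 930.2 CPM (lowest, median, highest) over the eGFP-read cells and 0, 99.99 and 1232 CPM over the eGFP-unread cells. The ranges overlapped throughout, and the groups differed mainly in how many cells held no Notch1 read. Notch1 was read in 72 of 76 eGFP-read cells (94.7%) and in 72.4% of the eGFP-unread cells. After thinning these shares were 93.4% (85.3 to 97.8) and 63.4% (54.3 to 71.9). That difference of 30.01 points was reached by only 8 of the 5832 genes, Notch1 included. In the summed cells Notch1 stood at 332.5 CPM (exact Poisson interval 326.1 to 339.1) and 210.01 CPM (205.4 to 214.7), 1.58-fold higher, with a log2 ratio of 0.66. The control luminal cells, at 208.96 CPM and 73.3% of thinned cells, were level with the eGFP-unread cells in CPM. Cells with 1 to 4 eGFP reads lay nearer the eGFP-read cells, at 292.2 CPM.

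The difference in Notch1 was larger in well columns 1 to 12 (log2 ratio 0.99) than in columns 13 to 24 (0.30). Among cells of 200000 to 450000 reads Notch1 stood at 352.03 and 231.7 CPM and was read in 95.2% and 67.1% of thinned cells. Among cells with 2000 to 4000 genes it stood at 380.1 and 240.6 CPM, in 97.8% and 68% of thinned cells. Within the eGFP-read cells, those below the median eGFP level of 66.4 CPM held 320.8 CPM of Notch1 and those at or above it 346.98 CPM. Over these 76 cells log2 eGFP and Notch1 gave a Pearson r of -0.36 and a Spearman rho of 0.055, a description in which eGFP CPM also went with depth (r -0.53). A gene count cannot tell reads of the transgene, which holds the intracellular part of Notch1, from those of the endogenous gene.

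Of the 25 genes of the list of Notch receptors, ligands and machinery, 12 could be compared. Notch1 was called higher and none was called lower, beside the background of 13.9% and 3.46%, and the list median was 0.20. Notch2, another receptor of the family, stood at 186.4 and 168.2 CPM in eGFP-read and eGFP-unread cells (59.4 in the control). Notch3, also a receptor but counted here in the list of target genes, stood at 107.4 and 79.7 CPM, with log2 ratios of 1.21 and -0.34 in the lower and upper well columns. Adam10, a protease that cuts Notch receptors, had a log2 ratio of -0.65, although it was read in more of the thinned eGFP-read cells (52.6% and 32.5%). Maml2, a Mastermind coactivator, had one of 0.50, and Rbpj, the DNA-binding partner, stood at 45.1 and 51.3 CPM. Of the ligands, Jag1 stood at 35.9 and 30.6 CPM and was read in too few cells to be compared, and Dll1 had no read in either group.

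The Notch targets Hes1 and Nrarp differed less between eGFP-read and eGFP-unread cells than between either group and the control plate. Hes1, a transcriptional repressor (chromosome 16, 30065357 to 30067796, protein-coding), ranged over 0, 534 and 4513 CPM in eGFP-read cells and 0, 236.9 and 3952 CPM in eGFP-unread cells, against 0, 69.4 and 2062 CPM in control cells. In the summed cells it stood at 724 CPM (715 to 734), 546 CPM (538 to 553) and 187.6 CPM (184.5 to 190.7). Its log2 ratio between the eGFP groups was 0.41, below 1.5-fold in all 22 alternative settings (0.18 to 0.55). Relative to control cells Hes1 was 3.86-fold higher in eGFP-read and 2.91-fold higher in eGFP-unread cells. Thinned shares of cells with a Hes1 read were 89.5%, 75.6% and 64.3%, and 26.4% of all genes had at least as large a gap between the eGFP groups. The cells with 1 to 4 eGFP reads, at 401 CPM, were below both.

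Nrarp, a feedback inhibitor that binds the Notch complex, stood at 91.5 and 81.7 CPM in eGFP-read and eGFP-unread cells and at 23.1 CPM in control cells, with a log2 ratio of 0.16 between the eGFP groups. It was read in 38.2% (27.2 to 50.02) and 21.95% (14.99 to 30.3) of thinned cells, and its direction differed between the plate sides (0.45 and -0.15). Hey1, a repressor related to Hes1, was not higher: it stood at 280.5 and 305.2 CPM, beside 421 CPM in the control. Myc, a growth-promoting transcription factor, was the only member of the 10 target genes to be called, and it was lower in eGFP-read cells, at 150.1 and 231.9 CPM (log2 -0.62; 98.7 CPM in the control). Its ratio was -0.23 in well columns 1 to 12 and -1.10 in columns 13 to 24, and similar shares of thinned cells held a Myc read (48.7% and 50.4%). Ccnd1, the G1 cyclin, stood at 1032 and 799.7 CPM (368.6 in the control). Of the 6 targets that could be compared, which include Notch3, none was called higher, beside 13.9% of all genes, and their median was 0.26. Hey2 (39.9 and 41.6 CPM), Heyl (9.17 and 0.97 CPM), Dtx1 (2.98 and 4.21 CPM) and Hes5, with 1 and 0 reads, were read in too few cells.

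**Figure D3:**
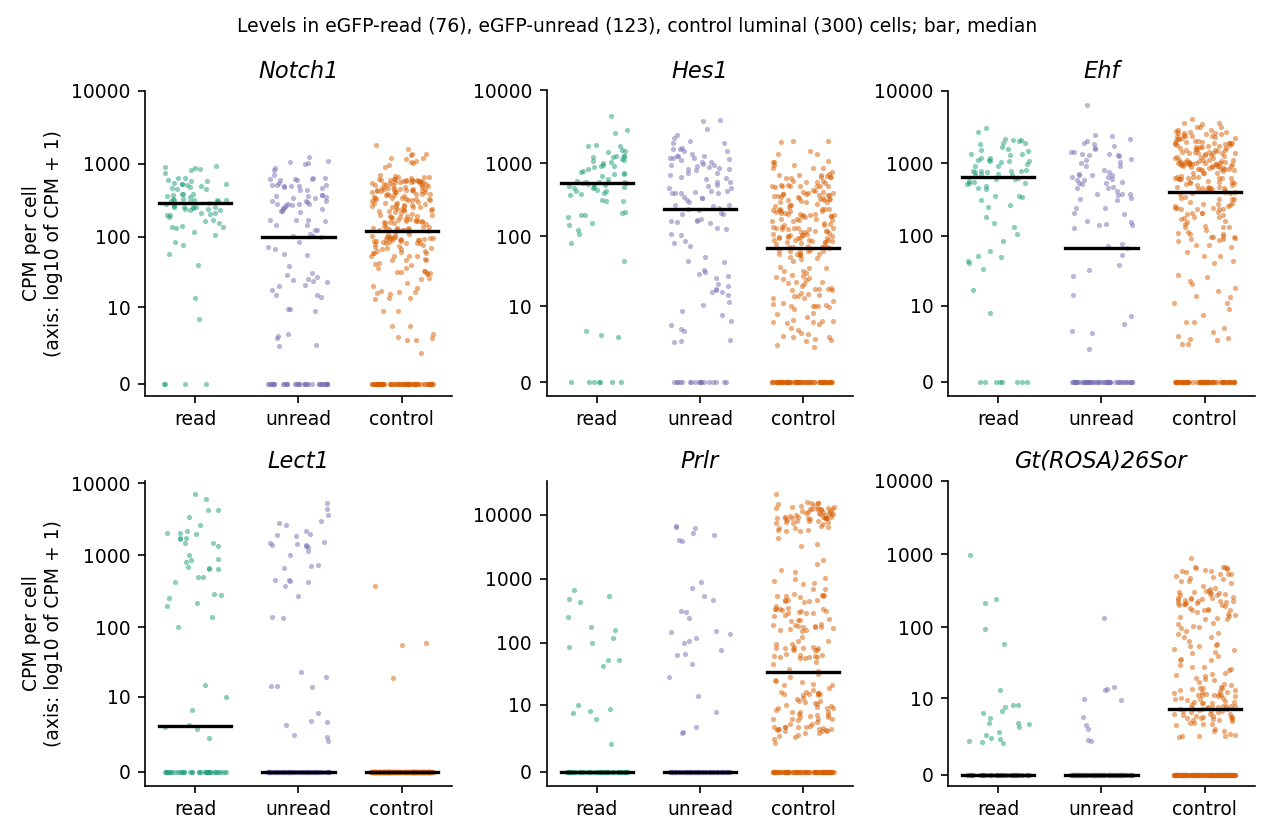
CPM per cell of 6 genes (vertical axes, log10 of CPM plus 1; 1 point per cell) in the 76 eGFP-read, the eGFP-unread and the 300 control luminal cells, with bars at the medians. All 6 pairs of eGFP groups overlap; the median of Notch1 is 288.1 CPM in eGFP-read and 99.99 CPM in eGFP-unread cells, that of Ehf 658 and 67.1 CPM, and the highest Prlr values of the plate lie among 7 eGFP-unread cells.

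Ehf, an epithelial transcription factor of the ETS family that is used by luminal progenitors (chromosome 2, 103263431 to 103303275, protein-coding), had the widest gap among the progenitor genes. Its levels were 0, 658 and 3022 CPM in eGFP-read cells and 0, 67.1 and 6393 CPM in eGFP-unread cells, beside 0, 409 and 4124 CPM in control cells. The single highest value was that of an eGFP-unread cell, and most cells of the plate without an Ehf read were also eGFP-unread. After thinning Ehf was read in 86.8% (77.1 to 93.5) of eGFP-read, 54.5% (45.2 to 63.5) of eGFP-unread and 73.3% of control cells, and only 3 of 5832 genes had as large a gap between the eGFP groups, Ehf included. The summed levels were 779 CPM (769 to 789) and 425 CPM (418 to 431), 1.83-fold higher, with log2 ratios of 0.94 and 0.82 in the plate sides. Among cells of 200000 to 450000 reads they were 877 and 399.6 CPM, and among cells with 2000 to 4000 genes 835 and 525 CPM.

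Of the 11 luminal progenitor genes 9 could be compared, and Ehf was the only one called, beside 13.9% of all genes called higher and 3.46% lower. Their median was 0.14. Kit, the stem cell factor receptor that marks luminal progenitors, ranged over 0, 801 and 3023 CPM in eGFP-read and 0, 410.1 and 6147 CPM in eGFP-unread cells. Its sum was 948 against 765 CPM (log2 0.31; 509 in the control), and it was read in 88.2% and 73.98% of thinned cells, a gap that 25.1% of all genes reached. Elf5, the transcription factor that directs alveolar fate, stood at 172.9 and 156.8 CPM, close in level, but was read in 73.7% (62.3 to 83.1) and 52.03% (42.8 to 61.1) of thinned cells, a gap that 3.89% of all genes reached. Sox10, a regulator of progenitor state, stood at 332.3 and 256.4 CPM, and Aldh1a3, a retinaldehyde dehydrogenase of luminal progenitors, at 379.5 and 361.1 CPM (693 in the control). Ltf, the iron-binding milk protein lactoferrin, went opposite ways in the plate sides, with log2 ratios of -2.59 and 1.16 around summed levels of 1659 and 2643 CPM.

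Counted by cell, progenitor markers were more often found together in eGFP-read cells. At least 3 of Kit, Elf5, Aldh1a3, Cd14 and Ltf stood at 20 CPM or more in 60 of 76 eGFP-read cells (78.9%, 68.1 to 87.5) and in 62 eGFP-unread cells (50.4%, 41.2 to 59.5). After thinning the shares were 77.6% (66.6 to 86.4) and 55.3% (46.1 to 64.3), beside 75.7% of control cells. Without the 7 hormone-sensing cells described below, the eGFP-unread share after thinning was 58.6% (49.1 to 67.7). Most genes were read in a larger share of eGFP-read cells, and no such count was made for other sets of 5 genes. The gap after thinning had the same direction in well columns 1 to 12 (79.4% and 55.9%) and 13 to 24 (76.2% and 54.5%). It narrowed among cells with 2000 to 4000 genes, to 78.3% (63.6 to 89.1) and 65.3% (53.5 to 75.96) after thinning. When only cells with 3 or more of these markers were compared, the log2 ratio of Ehf was 0.45 and that of Notch1 was 0.34, both below 1.5-fold, and both genes kept their direction.

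No eGFP-read cell had the profile of a hormone-sensing luminal cell, and a small group of eGFP-unread cells did. At least 3 of 8 hormone-sensing markers stood at 20 CPM or more in 0 of 76 eGFP-read cells (upper limit 4.74%). They did so in 7 eGFP-unread cells (5.69%, 2.32 to 11.4). Whether these shares differ was not tested. In the control plate 74 of 300 luminal cells (24.7%, 19.9 to 29.9) met the rule. The 7 cells were luminal, with 1719 to 2960 CPM of Krt8, and not shallow, with a median of 417390 reads and 4279 genes, and 6 of them lay in well columns 1 to 12. Since the 8 markers chose these cells, their levels describe the choice. All 7 held reads of Prlr, of the pioneer factor Foxa1, of the surface protein Ly6a and of Prom1, and 5 held reads of the progesterone receptor gene Pgr and of the estrogen receptor gene Esr1.

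Notch1 and the progenitor genes were low in these 7 cells. Notch1 was read in 2 of them, at 14.4 CPM in their sum. Kit was read in 1 cell with 1 read, and Elf5 in none. Hes1 stood at 117.4 CPM, beside 187.6 CPM over all control luminal cells, of which only 24.7% met the hormone-sensing rule. Lect1 and Csn1s1, described below, had 1 read each.

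These cells carried most of the difference in hormone-sensing genes. Prlr, the prolactin receptor (chromosome 15, 10177238 to 10349190), stood at 43.7 CPM in eGFP-read and 412 CPM in eGFP-unread cells, a log2 ratio of -3.21, beside 2900.4 CPM in the control. The 7 cells held 3910 to 6545 CPM of Prlr each, and the other eGFP-unread cells 42.2 CPM in sum, so without the 7 the ratio was 0.05. Prlr was read in 22.4% and 21.1% of thinned cells, and it was not called. Foxa1 had no read in the 76 eGFP-read cells and was read in 7 eGFP-unread cells, at 27.96 CPM in the sum (119.9 in the control). Pgr stood at 1.39 and 23.2 CPM, Ly6a at 12.7 and 190.3 CPM, and Prom1 at 1.03 and 98.99 CPM, while Esr1 was near 3 CPM on both sides (3.31 and 3.50). Of the 12 hormone-sensing genes only Prlr and Gata3, a luminal transcription factor with 586 and 581 CPM, were read widely enough to be compared. Neither was called, and their median of -1.60 became 0.057 without the 7 cells, which were chosen in part by Prlr.

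Secretory markers were found in both groups. At least 3 of 4 secretory markers stood at 20 CPM or more in 39.5% (28.4 to 51.4) of eGFP-read and 34.96% (26.6 to 44.1) of eGFP-unread cells, against 66.7% of control cells. Csn1s1, which encodes alpha-S1-casein, ranged over 0, 353.4 and 10530 CPM in eGFP-read and 0, 21.1 and 23382 CPM in eGFP-unread cells. Its sum was 1944 and 1815 CPM, beside 8131 CPM in the control. Csn2, the beta-casein gene, stood at 910.2 and 822 CPM (2056 in the control) and Csn3, the kappa-casein gene, at 3033 and 3737 CPM (10522 in the control). Of the 11 milk protein genes 5 could be compared, none was called, and the median was 0.10. Wap, whose promoter drives the Cre, had no read in eGFP-read cells, 53 reads in 2 eGFP-unread cells, and 2.34 CPM in the control.

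Genes of milk lipid synthesis and of prolactin signalling each held 1 gene called higher, counts near the 13.9% of all genes. Dgat1, which completes triglyceride synthesis, stood at 65.9 and 16.3 CPM (log2 1.95), but its ratio came from well columns 1 to 12 (4.01) and was 0.10 in columns 13 to 24. The other 8 of the 9 comparable milk lipid genes, of 18, were not called, and the median was 0.21. Akt1, a kinase of growth and survival signalling, stood at 124.1 and 72.95 CPM (log2 0.76; 76.2 in the control), with 0.89 and 0.64 in the plate sides. It was called higher in the prolactin and STAT5 list, of which 6 of 8 genes could be compared and the median was 0.06. Stat5a, which carries the signal of the prolactin receptor to its target genes, stood at 76.5 and 117.3 CPM (log2 -0.61) and was not called. None of the 10 comparable genes of the 12 in the involution and STAT3 list was called (median -0.12).

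Lect1, Alox15, Alox12e, Fbn2, Gadd45g and Slc5a7, which differed between the N1ICD-EGFP and control plates, did so in eGFP-unread cells as well. The eGFP-unread cells are 58.6% of the luminal cells of their plate, so a difference between the plates is in large part theirs. Lect1, listed by RefSeq as Cnmd, encodes chondromodulin, a secreted inhibitor of vessel growth (chromosome 14, 79637682 to 79662194). It ranged over 0, 3.30 and 6980 CPM in eGFP-read and 0, 0 and 5256 CPM in eGFP-unread cells, and reached 372.9 CPM in 1 of 300 control cells. In each group cells without a read stood beside cells with high levels. Lect1 was read in 53.9% (42.1 to 65.5) of eGFP-read, 34.1% (25.8 to 43.2) of eGFP-unread and 1.33% (0.36 to 3.38) of control cells. The sums were 805 CPM (795 to 815), 427 CPM (421 to 434) and 0.81 CPM, and the eGFP-read cells were 1.88-fold above the eGFP-unread cells (log2 0.91, with 0.72 and 1.504 in the plate sides). In thinned cells the shares of the eGFP groups were 50% and 29.3%, a gap that 5.62% of all genes reached. The log2 ratio was 0.51 among cells with 2000 to 4000 genes and 0.52 without cells of many genes, both below 1.5-fold.

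Alox15, a lipoxygenase that oxygenates polyunsaturated fatty acids (chromosome 11, 70344147 to 70390538), stood at 1637 CPM in eGFP-read, 1044 CPM in eGFP-unread and 57.4 CPM in control cells. Its log2 ratio of 0.65 between the eGFP groups passed 1.5-fold in 15 of 22 alternative settings. It was read in 57.9% and 53.7% of thinned cells of the eGFP groups and in 13.7% of control cells. Its neighbour Alox12e, another lipoxygenase, was level between the eGFP groups, at 2094 and 2051 CPM, with 322.8 CPM in the control. The fibrillin gene Fbn2, which encodes a matrix protein, stood at 378.55 and 314.02 CPM (39.8 in the control), and Gadd45g, a stress-response gene, at 220.7 and 182.4 CPM (86.7 in the control). Slc5a7, the choline transporter gene (chromosome 17, 54273590 to 54299038), was almost absent from both: 5 reads in 1 eGFP-read cell and none in the eGFP-unread cells, against 7831 reads in 31.3% of the control cells.

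The noncoding transcript of the locus that carries the transgene, Gt(ROSA)26Sor (chromosome 6, 113067428 to 113077244, long noncoding RNA), was higher in eGFP-read cells and below the control in both groups. It stood at 21.3 CPM (19.7 to 23.03) in eGFP-read and 1.92 CPM (1.51 to 2.42) in eGFP-unread cells, 11.1-fold higher, and at 77.1 CPM in control cells. It was read in 30.3% (20.2 to 41.9), 8.94% (4.55 to 15.4) and 62% of the cells, and in 11.8%, 3.25% and 45.3% of thinned cells. Few cells held the reads: 1 eGFP-read cell reached 978.5 CPM, and the median was 0 in both groups. The log2 ratio was 2.93, with 4.46 in well columns 1 to 12 and 0.58 in columns 13 to 24, just below 1.5-fold. The eGFP-read cells below the median eGFP level held 5.45 CPM of it and those at or above it, which include the cell at 978.5 CPM, 40.9 CPM. The shares of these cells with a read were 31.6% and 28.9%, and over the 76 cells log2 eGFP and Gt(ROSA)26Sor gave a Pearson r of -0.035 and a Spearman rho of -0.12, a description only. Setd5, a chromatin gene beside the locus, stood at 66.8 and 76.2 CPM (354.7 in the control). Thumpd3, on the other side, stood at 78.9 and 68.7 CPM (65.4 in the control), with log2 ratios of -1.22 and 1.497 in the plate sides. Of these 3 genes only Gt(ROSA)26Sor was called.

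Lyz2 and H2-Eb1 were lower in eGFP-read cells, and so were the summed levels of the lists they belong to. The medians of these lists over cells were close between the groups. Lyz2, the lysozyme of macrophages, stood at 3.05 and 37.4 CPM (log2 -3.25, with 7.93 CPM in the control), with a highest value of 176.2 and 2106 CPM. It was read in 30.3% and 34.1% of cells, and in 7.89% and 16.3% of thinned cells. H2-Eb1, an MHC class II chain, stood at 5.50 and 24.9 CPM (log2 -1.997) and reached 1335 CPM in 1 eGFP-unread cell. It was read in 34.2% and 28.5% of cells before thinning, but in 7.89% and 12.2% of thinned cells. Cd74, the class II invariant chain, stood at 29.2 and 64.1 CPM. H2-Ab1, another class II chain, was level at 16.2 and 17.1 CPM. Of 10 other leukocyte markers 2 could be compared and Lyz2 was called lower (median -1.47). Of 6 MHC class II genes 4 could be compared and H2-Eb1 was called lower (median -0.66). Over all genes compared, 3.46% were called lower and 13.9% higher. The 10 leukocyte markers summed to 55.4 CPM in eGFP-read, 100.96 CPM in eGFP-unread and 130.3 CPM in control cells, with 1 member, Cd3g, at 0 in eGFP-read cells. The MHC class II genes summed to 78.1, 144.95 and 47.8 CPM, with 1354 CPM in the highest eGFP-read and 8306 CPM in the highest eGFP-unread cell. The part of leukocyte RNA in these genes was not tested. Without cells holding any of the rule's 5 leukocyte genes at 20 CPM, the MHC class II median was 0.075. Of 12 interferon response genes 2 could be compared and none was called (median -0.79).

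Cell cycle and stress lists held no more than 1 called gene each, beside 13.9% of all genes called higher and 3.46% lower. Mcm6, a subunit of the replicative helicase, was lower in eGFP-read cells, at 74.3 and 198.5 CPM (log2 -1.41), but was read in similar shares of thinned cells (25% and 28.5%); it was the only one called of 4 comparable S phase genes, of 12 (median 0.12). None of the 10 G2 and M phase genes was read widely enough, and Mki67, the proliferation marker, was read in 3 eGFP-read and 10 eGFP-unread cells. Gadd45a, a p53 target of the DNA damage response, was lower, at 33.5 and 89.2 CPM, as the only call among 7 comparable of 10 cell cycle inhibitor and p53 genes (median 0.03). Pdia4, a chaperone of the endoplasmic reticulum, was higher, at 182.3 and 97.04 CPM, as the only call among 8 comparable of 10 endoplasmic reticulum stress genes (median 0.11). None of the 9 comparable of 10 immediate early and dissociation genes was called (median 0.18). Fos, the leading gene of that response, stood at 16100 and 13380 CPM.

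Markers of other cell types were too sparse to be compared in any of their lists, which were basal (10 genes), fibroblast (9), endothelial (7), adipocyte (5) and red blood cell markers (3 of 4 in the file). Their summed levels were 295.4 and 367.04 CPM for basal markers in eGFP-read and eGFP-unread cells, 28.2 and 57.97 CPM for fibroblast, 38.9 and 43.1 CPM for endothelial, 0.20 and 2.66 CPM for adipocyte and 19.3 and 0.42 CPM for red blood cell markers. The median over cells was 0 for each of these lists in both groups. The globin genes Hba-a1 and Hbb-bs were at 0 in all of these cells.

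**Figure D4:**
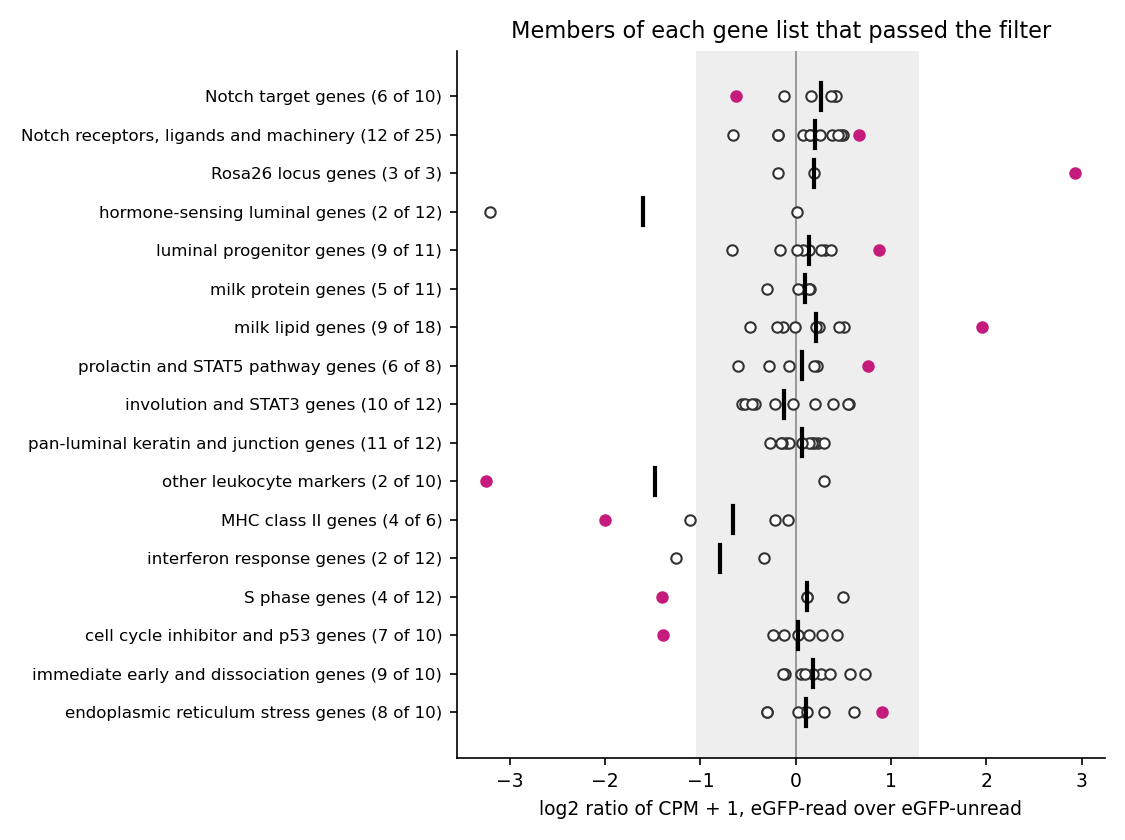
Log2 ratio of CPM plus 1, eGFP-read over eGFP-unread cells (horizontal axis), of the members of each gene list that could be compared (number of members in brackets); filled points are called genes, vertical bars are list medians and the grey band holds 95% of all 5832 genes (-1.03 to 1.28). Most members lie inside the band; those outside include Gt(ROSA)26Sor at 2.93, Dgat1 at 1.95, Prlr at -3.21, Lyz2 at -3.25, H2-Eb1 at -1.997, Mcm6 at -1.41 and Gadd45a at -1.39.

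The most extreme ratios lay mainly in genes read in a small share of the cells. Among called genes the highest was that of Rrm2b, a ribonucleotide reductase subunit induced by p53, at 33.7 and 1.58 CPM (log2 3.75), read in 17 eGFP-read and 6 eGFP-unread cells; control cells held 25.5 CPM. It was followed by Fchsd2 (3.34), the tRNA methyltransferase gene Trmt2b (3.02), Gt(ROSA)26Sor, Tmem41a (2.74), Mgat3 (2.52), the cyclin C gene Ccnc (2.503), Cplx2 (2.45), Rnf34 (2.41), Ssfa2 (2.38), Rabl2 (2.30) and Zfp277 (2.26). Of these, Mgat3, a glycosyltransferase that adds the bisecting sugar to N-glycans, stood at 130.5 CPM in eGFP-read, 21.98 CPM in eGFP-unread and 15.03 CPM in control cells, and was read in 16, 4 and 15 cells of these groups. Among called genes, the lowest ratios after Lyz2 were those of Kif13a (-2.58), a kinesin motor gene at 10.9 and 69.8 CPM, Aak1 (-2.38), Odf2 (-2.22), Dpysl2 (-2.18), Pdzd2 (-2.14), Ccdc181 (-2.14), the RNA exonuclease gene Xrn1 (-2.12), the Wnt coreceptor gene Lrp4 (-2.09), H2-Eb1 and Ranbp10 (-1.99).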

How the data were processed

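The authors deposited raw counts of reads, 1 column per sorted cell and 1 row per gene, from Smart-Seq2 libraries run on a HiSeq2500 instrument. STAR and mm10 are named per the submitters' processing notes; their versions, the counter, its annotation and its strand setting are not given in the sources, so overlapping genes may share reads. Of 24490 rows, 492 with a repeated name were added to their namesake, and eGFP was set apart, which left 23997 names. The files hold no mitochondrial rows, so no such filter was used. No doublets were called, as single cells were sorted; an alternative left out cells of many genes. Reads were summed by group and scaled to CPM, and log2 ratios used CPM plus 1. Thinning to 50000 reads used seed 1. Shares have Clopper-Pearson and sums exact Poisson 95% intervals. No value was tested, since a plate is 1 sample. The procedure was run on simulated counts with known changes, drawn for both groups from the values of the eGFP-unread cells. The simulation left out the difference in genes per read between the groups, so it cannot show how that difference affects the calls.

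The cells and the 23 gene lists were chosen with earlier results of these data known. Genes were named by rule: the 12 highest and 12 lowest ratios among called genes at 20 CPM or more (no predicted or ribosomal protein genes), at most 2 called genes per list and direction, and 18 fixed genes. Other list members are named as examples. A gene that the rule names is not reported here. The 22 alternatives varied cell filters, eGFP thresholds, plate columns, scaling, thinning, pseudocount and gene filters; 2 of them, cells with 2000 to 4000 genes and cells with 3 or more progenitor markers, were chosen after seeing the data. Coordinates are from the RefSeq table of GRCm38.p6. Python 3.11.15, numpy 2.4.6, pandas 2.3.3, scipy 1.17.1 and matplotlib 3.10.9 were used.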

Additional observations from a re-analysis of the deposited data

Results flagged for a closer look

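Reads of eGFP also appeared in cells of the N1ICD-EGFP plate that the comparison does not use, above the level in the matching control wells. Among the 52 leukocyte-marker cells 1 cell held 13 eGFP reads, against 0 in the 24 leukocyte-marker cells of the control plate. Among the 21 other kept cells, which had less than 10 CPM of Krt8 and no leukocyte profile, the highest held 120 eGFP reads and 4 held 5 or more, against a highest of 1 in the 10 such control cells. Among the wells left out for low depth or few genes the highest held 6 eGFP reads, against 1 in the 50 control wells left out.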

How the results depend on the processing

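No paired analysis was possible because each group of cells comes from 1 plate and the labels give no replicate numbers. Against 13.9% of compared genes higher (813) and 3.46% lower, a filter of 1 CPM with no minimum share gave 12.6% (1696 genes) and 12.8% (1724), and a 2-fold threshold 4.90% and 1.68%. Well columns 1 to 12 alone gave 25.1% (1603) and 6.63% (424), and columns 13 to 24 alone 24.96% (1449) and 9.46% (549), where agreement between the plate sides cannot be asked for. Cells with 3 or more progenitor markers gave 19.1% (1221) and 4.99%. The lower share alone moved, to 8.02% (458) among cells of 200000 to 450000 reads and to 11.01% (600) among cells with 2000 to 4000 genes; the cause was not tested. The hormone-sensing median of -1.60 reversed to 0.023 in well columns 13 to 24, 0.057 without the 7 hormone-sensing cells, 0.47 among cells with 2000 to 4000 genes and 0.086 among cells with 3 or more progenitor markers. The MHC class II median of -0.66 reversed to 0.075 without cells holding a leukocyte marker and to 0.76 in well columns 1 to 12. All 34 called genes among the 48 named kept their direction in all 22 settings. Part of this was fixed beforehand, because no gene was called unless each plate side and the averaged cell values agreed. Those are also among the 22 settings. The other settings reused cells of the main comparison, so they are not independent checks. Of these 34 genes, 23 stayed past 1.5-fold in all 22 settings. Notch1 did so in 17 settings, and its log2 ratio dropped below 1.5-fold by the mean of per-cell CPM (0.58), scaling by the median ratio (0.57), well columns 13 to 24 (0.30), without hormone-sensing cells (0.56) and among cells with 3 or more progenitor markers (0.34). An eGFP read can be missed in a shallow cell, so some eGFP-unread cells may hold the transcript.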

Other observations

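The 8 genes with the widest gap in the share of thinned cells with a read, a set chosen after its values were seen, were Tm9sf3 (72.4% of eGFP-read and 39.02% of eGFP-unread cells), Ilk (57.9% and 25.2%), Ehf, Synpo (78.95% and 47.2%), Acot1 (65.8% and 34.96%), Eri3 (53.95% and 23.6%), Adrbk1 (61.8% and 31.7%) and Notch1. Ilk, the integrin-linked kinase that ties integrins to the actin skeleton, stood at 166.7 and 93.3 CPM in these groups, with log2 ratios of 0.84 in both sides of the plate, beside 92.6 CPM in control luminal cells. The summed level of Tm9sf3 was 320.7 and 237.6 CPM and that of Synpo, an actin-binding protein, 314.1 and 261.2 CPM, both below 1.5-fold. At the other end Ttc14 was read in 23.7% of eGFP-read and 37.4% of eGFP-unread cells, Mier1 in 36.8% and 50.4%, and Lamb2, a laminin chain of the basement membrane, in 19.7% and 32.5%, at 20.4 and 78.5 CPM. No explanation for these values was tested.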
